A study of Ovis aries with 36 samples.

Results

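The glucocorticoid receptor NR3C1, 6 of its classical induced targets (FKBP5, TSC22D3, SGK1, DUSP1, ZBTB16 and KLF9) and the cortisol-regenerating enzyme HSD11B1 were followed in cultured sheep cells labelled as ruminal epithelial. These 8 genes were found by symbol, in 1 row each, among the 35223 genes of the count table. All 8 passed the filter on low counts, which left 22488 genes to be tested. RNA was sequenced in 36 libraries, 3 for each of 2 media at 6 harvest times.

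Before the media were applied, every culture spent 2 h without serum and with dexamethasone at 100 nM. This is a synthetic glucocorticoid that sets cellular clocks to a common phase. They then received medium with volatile fatty acids (VFAs), the microbial acids that the rumen wall absorbs, at pH 7.2. The Grain medium imitated a grain diet, with 71.1 mM acetate, 20.1 mM propionate, 16.0 mM butyrate, 5.3 mM isovalerate, 1.7 mM valerate and 1.1 mM isobutyrate (stated total 115.78 mM). The Hay medium imitated a hay diet, with 60.8 mM acetate, 14.6 mM propionate, 9.2 mM butyrate, 3.0 mM isovalerate, 1.2 mM valerate and 1.0 mM isobutyrate (stated total 89.79 mM). The 3 main acids were added as sodium salts, so sodium differed too. Harvests ran from 24 h (T0) to 44 h (T20) every 4 h. The event from which these hours count is not clear in the labels.

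All 12 groups received the same dexamethasone pulse, and cells without dexamethasone or without VFAs were not analysed here. The values therefore compare 2 media and 6 times after a shared glucocorticoid exposure, and they do not measure induction by dexamethasone. Whether the replicates of a group are separate cultures or animals is not stated. The p-values therefore rest on the variation among these libraries, and that variation could be purely technical.

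In its unliganded state the glucocorticoid receptor waits in the cytoplasm in a complex with HSP90 chaperones. Hormone binding sends it to the nucleus, where it activates genes with glucocorticoid response elements and restrains inflammatory genes driven by NF-kB and AP-1. Several of its targets feed back: FKBP5 lowers the receptor's affinity for hormone, and TSC22D3 and DUSP1 carry part of the anti-inflammatory action. Each of these targets also answers to other signals, such as cell stress, growth factors or osmolarity. Dexamethasone acts on the receptor directly and needs no activation by HSD11B1.

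Library totals ran from 52.4 M to 68.12 M counts. Levels are given as CPM (counts per M counts of the library, scaled by the trimmed mean of M-values, TMM), and compare a gene with itself across libraries, not 1 gene with another. The TMM factors in Grain lay between 1.038 and 1.055 at T8 and between 0.8589 and 0.869 at T12. In Hay they lay between 1.072 and 1.088 at T8 and between 0.9818 and 1.001 at T12. Changes were therefore also computed with library size alone, without these factors. The labelled epithelial identity was checked against marker genes. The general epithelial markers EPCAM, CDH1, KRT8 and KRT18 summed to a median of 115.7 CPM in Grain and 189 in Hay. Of these, EPCAM alone ran the other way, with medians of 28.1 CPM in Grain and 23.2 in Hay. The basal keratinocyte markers KRT5, KRT14, KRT15 and TP63 summed to a median of 303 CPM in Grain and 205.9 in Hay. Within that list KRT5 and KRT14 had higher medians in Grain, while KRT15 and TP63 had lower ones. Epithelial lists thus differed in direction between the media. Of 5 markers of differentiated rumen epithelium, KRT4 was at 0 in 35 of 36 libraries, while KRT13 (7.72 to 21.8 CPM), KRT6A (10.8 to 44.0 CPM), SPINK5 (4.64 to 10.4 CPM) and IVL (0.198 to 1.18 CPM) had counts in all of them. The mesenchymal markers VIM, COL1A1, COL1A2, COL3A1 and PDGFRB had summed medians of 22860 CPM in Grain and 18100 in Hay, far above the epithelial sums. Although CPM does not rank genes, these markers did not bear out a purely epithelial culture. The mesenchymal markers did not move together between the media. Medians in Grain and Hay were 13230 and 6393 CPM for VIM, 3704 and 2254 for COL3A1 and 6.29 and 5.91 for PDGFRB. Those of COL1A1 (2135 and 3416) and COL1A2 (3850 and 6364) were lower in Grain. In bulk RNA, fewer cells of a type and less RNA per cell cannot be told apart.

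Averaged over the 6 times, SGK1, DUSP1, NR3C1 and KLF9 were lower in Grain than in Hay medium, and ZBTB16, TSC22D3, HSD11B1 and FKBP5 were higher. The induced targets were thus divided, with 3 of 6 on each side. SGK1 showed the widest gap of the 8, 2.61-fold, and FKBP5 the narrowest, 1.13-fold. The log2 difference of FKBP5 was 0.17 with TMM factors and 0.05 with library size alone, and that of KLF9 -0.22 and -0.35. By edgeR's quasi-likelihood test with Benjamini-Hochberg adjustment, all 8 were called at an adjusted p under 0.05. Of all genes tested, 81.8% were called in the same comparison (37.9% higher, 43.9% lower in Grain), so the count of members called is near the background. The median log2 difference was -0.02 over the 8 genes and -0.07 over all genes.

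**Figure D1:**
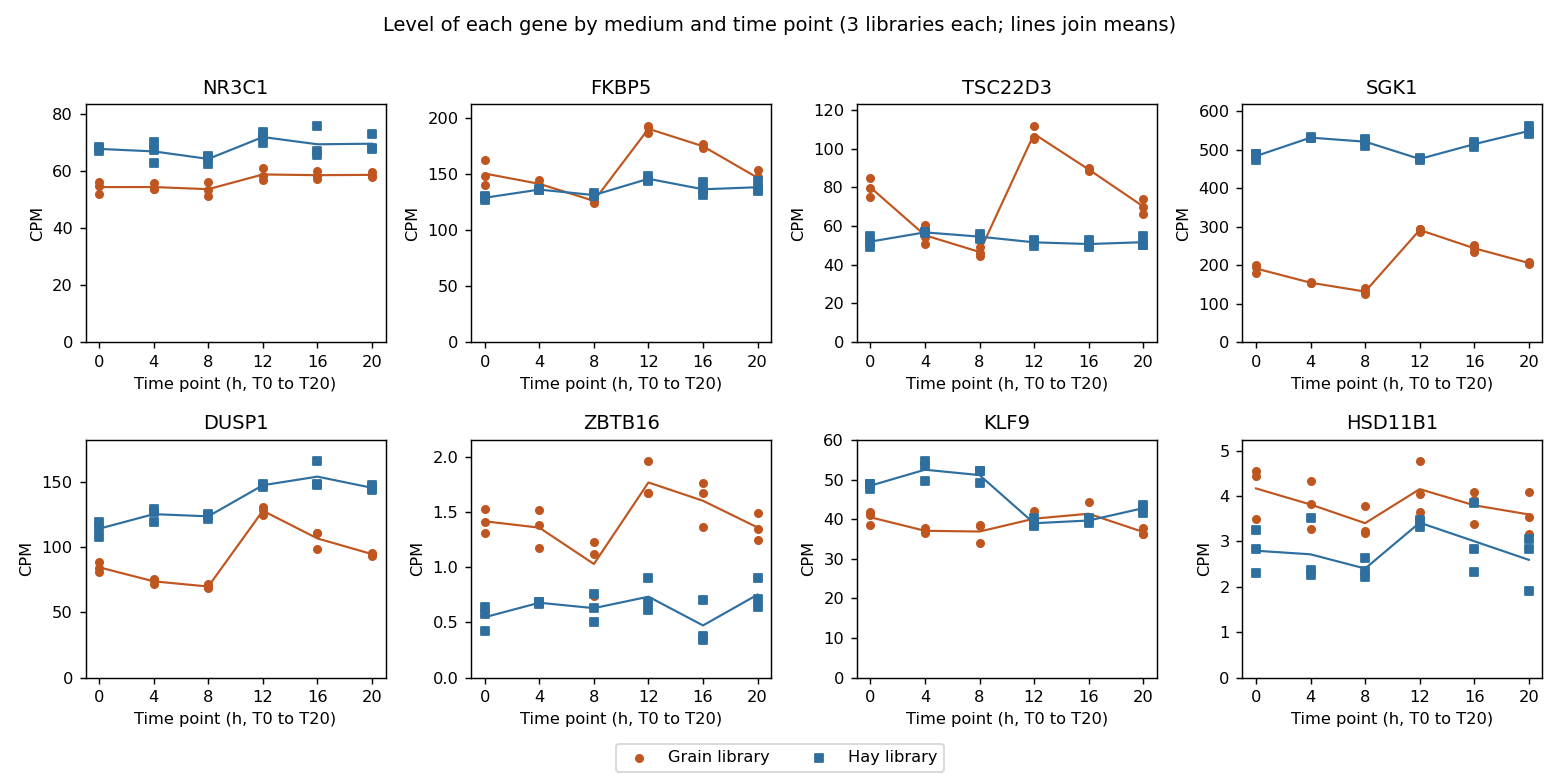
Level of each of the 8 genes (CPM on a linear axis, separate for each gene) against time point in hours; points are the 3 libraries of each group, lines join group means, colours mark Grain and Hay medium. In Grain, SGK1, TSC22D3, DUSP1 and FKBP5 have their lowest mean at T8 and their highest at T12, while in Hay SGK1 stays between 472.8 and 561.3 CPM.

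The receptor itself was the member with the steadiest difference. NR3C1 stood at 51.4 to 61.1 CPM in the 18 Grain libraries, with a median of 56.7, and at 62.7 to 75.9 CPM in the 18 Hay libraries, with a median of 67.96. No Grain library reached the lowest Hay library, a separation shared by 27.2% of all genes. The log2 difference was -0.28 (SE 0.019, adjusted p = 3.33e-16, edgeR), or 1.21-fold.

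At single times the NR3C1 difference ranged from -0.32 at T0 to -0.24 at T16, and it was called at all 6. At T12 and T16 it was -0.48 and -0.39 with library size alone, where TMM gave -0.29 and -0.24. A dependence of the difference on time was not detected (adjusted p = 0.884, edgeR F test of 5 contrasts). Within Grain, the 3 libraries of T8 read 56.3, 53.4 and 51.4 CPM, those of T12 read 61.1, 58.5 and 57.0 CPM, and those of T20 read 58.1, 58.2 and 59.9 CPM. With TMM factors the groups T12, T20 and T16 had means of 58.9, 58.75 and 58.6 CPM, and the lowest of their libraries lay above the highest of T4, T0 and T8. This order did not hold with library size alone, where the change from T8 to T12 in Grain was -0.15, called as a fall. In Hay the order of the means, also with TMM factors, ran T12, T20, T16, T0, T4, T8, and each group's range overlapped that of its neighbour.

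SGK1 encodes a kinase that raises sodium uptake through epithelial channels and is switched on by glucocorticoids, mineralocorticoids and cell shrinkage. At T8 its Grain libraries read 139.5, 129 and 125 CPM and its Hay libraries 510.5, 525 and 527 CPM. At T12 the Grain libraries read 294.5, 293 and 287 CPM and the Hay libraries 478.5, 476 and 473 CPM. Grain thus sat below Hay without overlap at both times, but the gap had shrunk. Separation of the media within a time point was common, at 64.1% (T8) to 68% (T12) of all genes.

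The fitted SGK1 difference was -1.99 (SE 0.034) at T8, or 3.96-fold, against -0.71 (SE 0.033) at T12, or 1.63-fold. Over the 6 Grain groups the means were 191 CPM at T0, 154.5 at T4, 131 at T8, 291 at T12, 244 at T16 and 206 at T20. Neighbours in that order of levels did not overlap. The Hay means moved between 476 CPM at T12 and 548.5 CPM at T20, with T8 and T16, and T0 and T12, overlapping. The mean difference of -1.38 (SE 0.014, adjusted p = 4.8e-42, edgeR) covered this range of gaps.

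DUSP1, a phosphatase that switches off p38, JNK and ERK kinases, was the other target below Hay at all 6 times. Its Grain libraries read 68.7, 71.4 and 69.3 CPM at T8 and 128, 124.6 and 131 CPM at T12. Its Hay libraries read 122, 124 and 125 CPM at T8 and 146, 148 and 148 CPM at T12. DUSP1 thus rose between these times in both media, and by more in Grain.

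At T8 the DUSP1 difference was -0.82 (SE 0.043), at T12 it was -0.21 (SE 0.042) and at T20 it was -0.62 (SE 0.043). The T8 and T12 values were -0.87 and -0.40 with library size alone. The libraries of the media did not overlap at any single time. Within each time point, 64.1% to 68% of all genes were separated in this way. The Grain libraries of T12 overlapped the Hay libraries of T4 and T8. Over all times Grain ran from 68.7 to 131 CPM and Hay from 107.8 to 166 CPM.

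KLF9, a Krüppel-like repressor that responds quickly to glucocorticoids and thyroid hormone, was lower in Grain at 4 times. Hay libraries read 48.8, 49.0 and 47.6 CPM at T0, 52.2, 49.2 and 52.1 CPM at T8, and 38.2, 40.3 and 38.5 CPM at T12. Grain libraries read 41.0, 41.9 and 38.6 CPM at T0, 38.5, 38.2 and 34.0 CPM at T8, and 42.1, 39.9 and 38.5 CPM at T12. The gap at T0 and T8 was absent from the ranges at T12, where the Hay level had come down to that of Grain.

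The KLF9 difference was -0.50 (SE 0.047) at T4 and -0.47 (SE 0.047) at T8. It was 0.04 (SE 0.047, adjusted p = 0.455, edgeR) at T12 with TMM factors and -0.15, called as lower, with library size alone. At T16 it was 0.06 with TMM factors and -0.09 with library size alone, not called with either.

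TSC22D3, also known as GILZ, is a glucocorticoid-induced protein that binds NF-kB and AP-1. Hay libraries stayed between 49.3 and 57.1 CPM over all 6 times, with a median of 52.8. Grain libraries read 84.8, 79.8 and 75.2 CPM at T0, 49.0, 46.1 and 44.7 CPM at T8, and 105.1, 105.9 and 112 CPM at T12. The 3 Grain libraries of T8 were below every Hay library of that time, and those of T12 were above every one.

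The TSC22D3 difference accordingly changed sign: 0.62 (SE 0.051) at T0, -0.23 (SE 0.052, adjusted p = 0.000292, edgeR) at T8 and 1.06 (SE 0.051) at T12, the last a 2.09-fold difference. At T4 it was -0.04 (SE 0.052) and not called, with Grain libraries at 50.9, 54.2 and 60.6 CPM on both sides of Hay at 56.4 to 57.1 CPM. Without the lowest of these Grain libraries, replicate 1, it was 0.02, and with library size alone it was -0.12 and called. At T16 and T20 Grain was higher by 0.82 and 0.44.

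FKBP5, the HSP90 co-chaperone that damps receptor sensitivity, followed a similar course at a smaller scale. Grain libraries read 129, 124 and 125 CPM at T8, 192, 186.5 and 193 CPM at T12, and 173, 177 and 174 CPM at T16. Hay libraries read 133, 130.5 and 130.2 CPM at T8 and 144, 145 and 149 CPM at T12. Grain lay just under Hay at T8 and well over it at T12.

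FKBP5 was higher in Grain by 0.22 (SE 0.037) at T0, 0.39 (SE 0.037) at T12 and 0.36 (SE 0.037) at T16. With library size alone the T0 difference was 0.07 and not called, and those at T12 and T16 were 0.19 and 0.21. The difference at T20 was 0.09 (SE 0.037, adjusted p = 0.045, edgeR) with TMM factors and -0.02, not called, with library size alone. That call was also lost with DESeq2, with DESeq2 size factors, with no filter, with T20 fitted alone and without most single libraries. At T8 it was -0.06 and not called, but it was called as lower with DESeq2, with DESeq2 size factors and with library size alone, at about -0.10 in each. At T4 it was 0.05 with TMM factors and -0.03 with library size alone, not called with either. FKBP5 shares its annotated place with the uncharacterised LOC121817390, and the kit keeps no strand that would separate their reads. LOC121817390 had 15 to 63 counts per library, against 7169 to 10854 for FKBP5.

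ZBTB16, a zinc-finger repressor also known as PLZF, was scarce, with 43 to 111 counts per Grain library and 21 to 56 per Hay library. Its level was 0.739 to 1.96 CPM in Grain, with a median of 1.40, and 0.345 to 0.902 CPM in Hay, with a median of 0.654. Only T8 had overlapping libraries within a time point: 1.12, 1.23 and 0.739 CPM in Grain against 0.507, 0.627 and 0.753 CPM in Hay. The mean difference was 1.16 (SE 0.097, adjusted p = 1.56e-13, edgeR), or 2.24-fold. It ran from 0.72 (SE 0.24) at T8 to 1.75 (SE 0.24) at T16 and was called at all 6 times. The call at T8 was lost without Grain replicate 2 or Hay replicate 1 of that time.

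HSD11B1 encodes the enzyme that turns inactive cortisone back into cortisol inside cells. It too was low, with 175 to 270 counts per Grain library (3.16 to 4.76 CPM, median 3.81) and 123 to 237 per Hay library (1.91 to 3.86 CPM, median 2.83). Grain was higher on average by 0.44 (SE 0.073, adjusted p = 9.9e-07, edgeR), or 1.36-fold. The direction was the same at all 6 times, between 0.28 at T12 and 0.58 at T0, and 4 were called (T0, T4, T8 and T20). It was 0.09 at T12 and 0.19 at T16 with library size alone, and the call at T20 was lost.

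The HSD11B1 calls at T4, T8 and T20 were each lost when 1 of certain libraries of that time was left out, among them Grain replicate 2 at T4, Grain replicate 1 at T8 and either replicate 3 at T20. HSD11B1 overlaps LAMB3, a laminin chain of epithelial basement membrane, in the annotation. LAMB3 had 1932 to 3684 counts per library and was lower in Grain (-0.13, SE 0.024), so its difference had the opposite sign. Reads of the 2 genes cannot be told apart without strand.

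**Figure D2:**
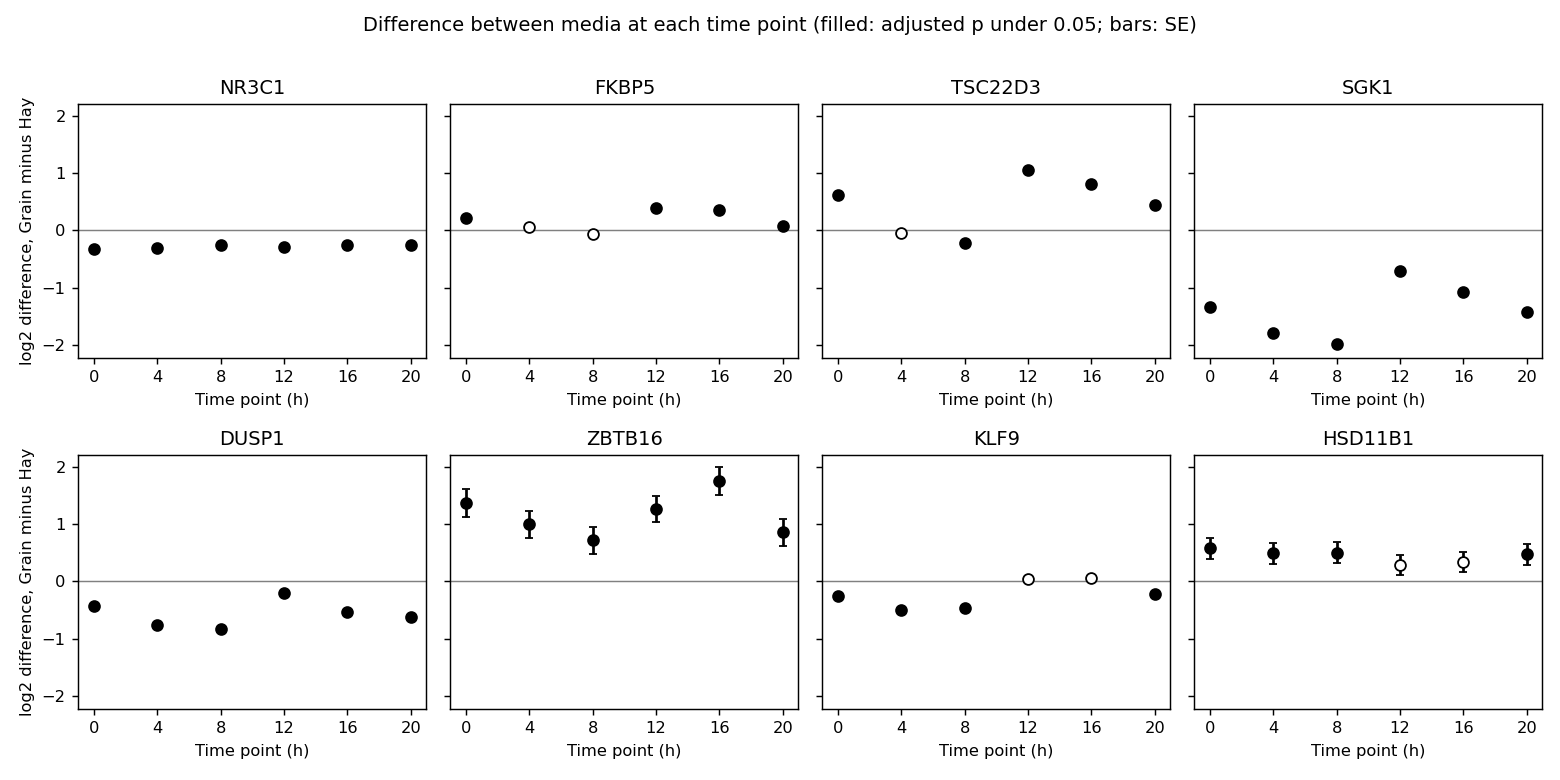
Log2 difference Grain minus Hay of each of the 8 genes at each time point in hours, as a point with its SE; filled points have an adjusted p under 0.05. NR3C1, SGK1 and DUSP1 lie below 0 and ZBTB16 and HSD11B1 above 0 at all 6 times, while TSC22D3 goes from -0.23 at T8 to 1.06 at T12; with library size alone FKBP5 changes sign at T4 and T20 and KLF9 at T12 and T16.

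At single times, 8 of 8 genes were called at T0 (62.8% of all genes), 6 at T4 (57.8%), 7 at T8 (56.8%), 6 at T12 (64.3%), 6 at T16 (62.7%) and 8 at T20 (58.9%). Most genes tested were called in each of these comparisons, so a high count is common to the transcriptome. The T20 count was 6 with library size alone and went down to 6 when single libraries were left out, without Grain replicate 3 or Hay replicate 3 of T20, and the counts at T4 and T8 to 5 and 6. The shares above belong to the fit of all libraries with TMM factors, and those of these refits are not given here.

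The difference between the media depended on time for FKBP5, TSC22D3, SGK1, DUSP1 and KLF9, that is for 5 of 8 genes against 32.6% of all genes. The remaining genes NR3C1, ZBTB16 (adjusted p = 0.117) and HSD11B1 (adjusted p = 0.906, edgeR F tests) were not called. ZBTB16 was called without Hay replicate 2 of T16. In Grain, 6 of 8 genes differed between times against 51.5% of all genes, ZBTB16 (adjusted p = 0.0672, edgeR F test) and HSD11B1 being the exceptions. DESeq2 called ZBTB16 too. In Hay, FKBP5, SGK1, DUSP1 and KLF9 did, 4 of 8 against 35.2%, and TSC22D3 (adjusted p = 0.0746) and NR3C1 (adjusted p = 0.0574, edgeR F tests) did not. Both were called without certain single libraries, and FKBP5 was not called in Hay without the T12 libraries or with library size alone.

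Much of the time course lay between T8 and T12, a step that was singled out after the values were seen. In Grain, 7 of 8 genes had their lowest group mean at T8 (24.2% of all genes) and 6 of 8 their highest at T12 (26.7%). In Hay, 2 of 8 had their lowest mean at T8 (20.8%) and 3 of 8 their highest at T12 (27.5%). The means of 6 genes in Grain, but not of KLF9 and HSD11B1, were thus lowest at T8 and highest at T12, as in 16.3% of all genes. All these means use TMM factors, and the counts depend on that choice. With library size alone NR3C1 changed by -0.15 from T8 to T12 in Grain, so it lacks this pattern on that scale.

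From T8 to T12 in Grain, TSC22D3 rose 2.31-fold, SGK1 2.22-fold, DUSP1 1.83-fold and FKBP5 1.51-fold, all on the TMM scale and also called with library size alone. ZBTB16 rose 1.71-fold (adjusted p = 0.00407, edgeR), a call that library size alone did not give. The receptor NR3C1 rose by 0.13 (SE 0.046) with TMM factors but fell by 0.15 with library size alone, called with both. KLF9 likewise rose by 0.12 (SE 0.047) with TMM factors but fell by 0.16 with library size alone, called with both. HSD11B1 had a log2 change of 0.29 (SE 0.18) and was not called.

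In all, 7 of 8 genes rose with TMM factors, against 50% of all genes called, 23.5% higher and 26.5% lower. With library size alone 4 rose and 2 fell. The shares of all genes on that scale are not given here, and the shares above are not the background of these counts. The choice of scaling moved the median of all genes from -0.06 to -0.34 on the log2 scale, and that of the 8 genes from 0.69 to 0.41. The NR3C1 and KLF9 calls also rested on Grain replicate 1 of T12 and Grain replicate 3 of T8. Without the first the changes were 0.12 and 0.10, and without the second 0.10 and 0.07, none of them called.

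The same step in Hay looked different. DUSP1 rose by 0.25 (SE 0.042), NR3C1 by 0.16 (SE 0.045), FKBP5 by 0.15 (SE 0.037) and HSD11B1 by 0.51 (SE 0.18). KLF9 had a change of -0.39 (SE 0.047) and SGK1 of -0.13 (SE 0.033), both called as falls, and TSC22D3 (-0.08) and ZBTB16 (0.22) were not called. This made 6 of 8 genes called, 4 higher and 2 lower, against 36.1% of all genes (19.6% higher, 16.4% lower). With library size alone DUSP1 still rose and SGK1 and KLF9 still fell, TSC22D3 was called as falling (-0.21), and the rises of NR3C1, FKBP5 and HSD11B1 were no longer called. The HSD11B1 call was also lost without any of 4 single libraries, replicates 1 and 2 of T8 and replicates 2 and 3 of T12.

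The difference between the steps, Grain minus Hay, was tested in the same fit. It was 1.29 (SE 0.073) for TSC22D3, 1.28 (SE 0.047) for SGK1, 0.62 (SE 0.060) for DUSP1, 0.51 (SE 0.066) for KLF9 and 0.44 (SE 0.052) for FKBP5. These 5 of 8 were called, all with the higher value in Grain, against 32.5% of all genes (14.4% higher in Grain), and NR3C1 (-0.03, SE 0.064), ZBTB16 (0.55, SE 0.33) and HSD11B1 (-0.22, SE 0.25) were not. NR3C1 was called too with library size alone, at -0.18, and the FKBP5 value was 0.29. The shares above belong to the TMM scale.

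**Figure D3:**
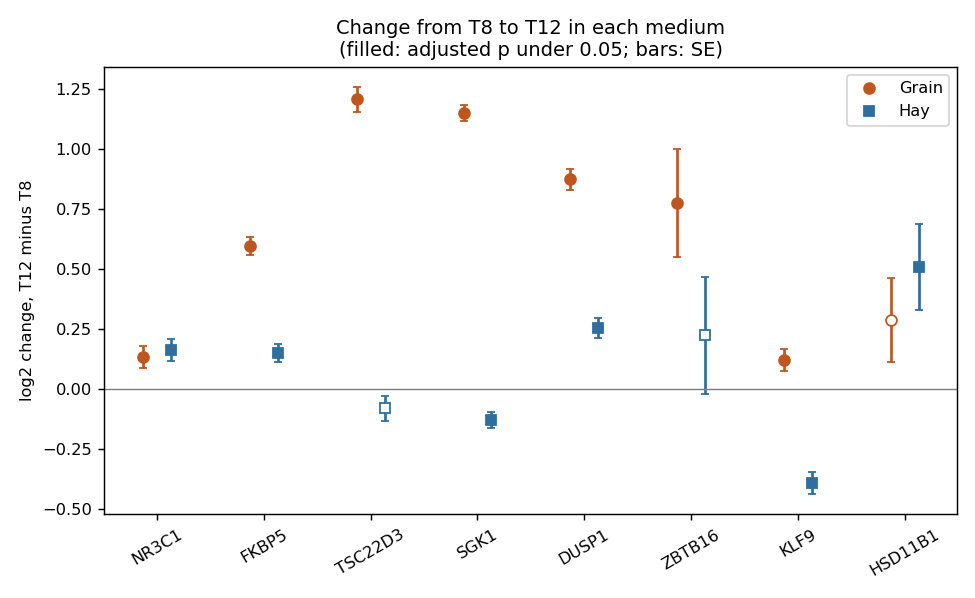
Log2 change from T8 to T12 of the 8 genes in Grain (circles) and Hay (squares), with SE bars and TMM scaling; filled symbols have an adjusted p under 0.05. TSC22D3 and SGK1 rise by 1.21 and 1.15 in Grain and change by -0.08 and -0.13 in Hay; with library size alone the Grain changes of NR3C1 and KLF9 turn to -0.15 and -0.16.

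Marker levels moved over the same step. In Grain the mesenchymal sum had a mean of 18380 CPM at T8 and 29390 CPM at T12, with no overlap of libraries. The basal keratinocyte sum (KRT5, KRT14, KRT15 and TP63) had means of 179 and 487 CPM, and the smooth muscle sum (ACTA2, DES, MYH11 and CNN1) of 165 and 459.8 CPM. In Hay the 3 means were 16250, 189.9 and 133 CPM at T8 and 21850, 261 and 544 CPM at T12, again with no overlap of libraries. With TMM factors all 3 sums were thus higher at T12 in both media, as was that of differentiated epithelium (27.2 and 61.4 CPM in Grain, 48.5 and 55.3 CPM in Hay). Every marker sum here uses these factors, which went down over this step in both media. Sums with library size alone are not given here. The general epithelial sum was higher at T12 in Grain (107 and 139 CPM), while in Hay the libraries overlapped (188.5 and 185 CPM). The endothelial sum was lower at T12 in both media, at 5.58 and 4.27 CPM in Grain and 7.41 and 5.22 CPM in Hay. The part of these shifts, and of the change in TMM factors, in the steps of the 8 genes was not tested. Leukocyte markers (PTPRC, CD3E and CD68) summed to at most 1.73 CPM in any library.

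After T12 the Grain levels of SGK1, TSC22D3, DUSP1 and FKBP5 came down again. SGK1 changed by -0.26 (SE 0.033) to T16 and by -0.25 (SE 0.033) to T20, and TSC22D3 by -0.27 (SE 0.050) and -0.35 (SE 0.051). DUSP1 changed by -0.26 and -0.17 and FKBP5 by -0.12 and -0.25. All 8 changes were called as falls, but the first of FKBP5 (-0.03) and the second of DUSP1 (-0.10) were not called with library size alone. Falls were called for 5.73% of all genes in Grain between T12 and T16 and for 6.96% between T16 and T20. From T0 to T4, where 10.5% of all genes fell, TSC22D3 had fallen in Grain by 0.53 (SE 0.051) and SGK1 by 0.31 (SE 0.034). DUSP1 changed by -0.20 (SE 0.044) there, also called as a fall. From T4 to T8 in Grain, TSC22D3 (-0.25, SE 0.052), SGK1 (-0.23, SE 0.034) and FKBP5 (-0.16, SE 0.037) were called as falls, against 2.62% of all genes. The FKBP5 change in that step was not called with library size alone (-0.11). With TMM factors NR3C1, ZBTB16 and HSD11B1 had no step in Grain that was called as a fall. KLF9 had 1, from T16 to T20 (-0.17), which was not called with library size alone (-0.10). KLF9 changed by 0.04 from T12 to T16, or 0.13 and called as a rise with library size alone. In Hay no step after T12 was called as a fall for SGK1, TSC22D3, DUSP1 or FKBP5.

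A straight line over the 20 h rose in Grain for NR3C1, FKBP5, TSC22D3, SGK1 and DUSP1, 5 of 8 genes against 23.3% of all genes called and 12.5% rising. The rise amounted to 0.52 (SE 0.028) for SGK1 and 0.47 (SE 0.037) for DUSP1 over the whole span, and the NR3C1 rise of 0.14 was not called with library size alone. In Hay, DUSP1 rose by 0.41 (SE 0.036) and KLF9 had a slope of -0.36 (SE 0.039) over the span. FKBP5 and SGK1 rose by 0.10 and 0.09, calls that were lost with library size alone. That made 4 of 8 genes in Hay against 22.9% (13.9% rising, 9% falling). The slope differed between the media for TSC22D3, SGK1 and KLF9, 3 of 8 genes against 12.3%. Without the T0 or without the T20 libraries 5 were called, but the shares of all genes in those refits are not given here.

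Since the pulse was given to synchronise clocks, a cosine of 24 h period was also fitted. In Grain it was called for NR3C1, FKBP5, TSC22D3, SGK1 and DUSP1, 5 of 8 genes against 31.8% of all genes, with peaks between 15.2 h (FKBP5) and 16.3 h (TSC22D3) on the scale of the time points. The amplitude was 0.43 (SE 0.059) for SGK1, 0.40 (SE 0.072) for TSC22D3 and 0.08 (SE 0.021) for NR3C1; an amplitude is the log2 distance from the mean to the peak. The NR3C1 component was not called with library size alone. With TMM factors, each of these 5 genes had its highest Grain mean at T12, earlier than its fitted peak.

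In Hay, DUSP1 (amplitude 0.20, SE 0.046, peak at 15.3 h) and KLF9 (amplitude 0.23, SE 0.027, peak at 3.76 h with an SE of 0.445 h) had a 24 h component, 2 of 8 genes against 20.7%. The component differed between the media for TSC22D3, SGK1 and KLF9, 3 of 8 genes against 11.3%. The calls for TSC22D3 and SGK1 were lost without the T4 libraries, and 5 genes were called without the T0 libraries. Shares of all genes in these refits are not given here, and 11.3% is not their background. With 6 times over 20 h, less than a full cycle, a trend, a single step and a 24 h wave cannot be told apart.

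Genes that work with the receptor were read from 5 further lists. Of 14 chaperones of the receptor complex, 7 were higher and 6 lower in Grain over the mean of the times (median 0.13). Of all genes tested, 37.9% were higher and 43.9% lower in this comparison (median -0.07). HSP90AB1, the constitutive HSP90, was higher by 1.87 (SE 0.016), HSPA8, the constitutive HSP70, by 1.63 (SE 0.016), and ST13, which joins the 2 chaperones, by 0.75 (SE 0.013). The inducible HSP90AA1 was lower (-0.45, SE 0.00997), as were the co-chaperones DNAJA1 (-0.73, SE 0.013) and STIP1 (-0.63, SE 0.011). HSPA8, DNAJA1 and STIP1 overlap other annotated genes, so their values are uncertain.

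All 14 cofactors of the receptor differed with TMM factors, 10 higher and 4 lower (median 0.21), against 81.8% of all genes called. With library size alone 8 were higher and 4 lower (median 0.09, against -0.19 over all genes on that scale). The Mediator subunit MED1 (0.64, SE 0.014) and the coactivator NCOA1 (0.54, SE 0.019) were higher. The coactivator NCOA2 was lower (-1.16, SE 0.053), with means of 2.66 CPM in Grain and 5.89 in Hay, as were the corepressor NRIP1 (-0.17) and HEXIM1 (-0.13), an inhibitor of P-TEFb. NCOA1 and NRIP1 overlap other annotated genes. Of 8 other steroid receptors, cortisol enzymes and carriers, the 7 in the table were all lower in Grain (median -0.59). Of all genes tested, 43.9% were lower. H6PD, which supplies HSD11B1 with its cofactor NADPH, was lower (-0.67, SE 0.020), while HSD11B1 itself was higher. ESR1, an oestrogen receptor, was lower (-1.82, SE 0.19), stood at or under 1.19 CPM in every group and overlaps another annotated gene.

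Of 40 further induced targets, 37 were tested, and 15 were higher and 18 lower in Grain (median -0.08 against -0.07 for all genes, of which 37.9% were higher and 43.9% lower). ANGPTL4, an inhibitor of lipoprotein lipase, was higher by 1.71 (SE 0.044), the cell-cycle inhibitor CDKN1C by 1.40 (SE 0.043) and CRISPLD2 by 0.77 (SE 0.017). FBXO32, a ubiquitin ligase subunit active in muscle wasting, was lower (-1.80, SE 0.034), as were the transcription factors CEBPD (-1.28, SE 0.030) and BCL6 (-0.83, SE 0.014). The division into higher and lower genes was near that of all genes tested.

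Of 23 genes known to be repressed by glucocorticoids, 20 were tested, and 13 were lower and 6 higher in Grain (median -0.96). Of all genes tested, 43.9% were lower and 37.9% higher (median -0.07). MMP1, a collagenase, was lower (-1.96, SE 0.025), as were the cytokine genes CXCL8 (-1.45, SE 0.020) and IL1A (-1.21, SE 0.016). IL11 (2.34, SE 0.035), MMP9 (1.33, SE 0.039) and MMP13 (0.57, SE 0.020) were higher. Directions within this list were mixed as well, but its median lay below that of all genes. Each of the genes named from the 5 lists kept its direction and its call with library size alone.

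**Figure D4:**
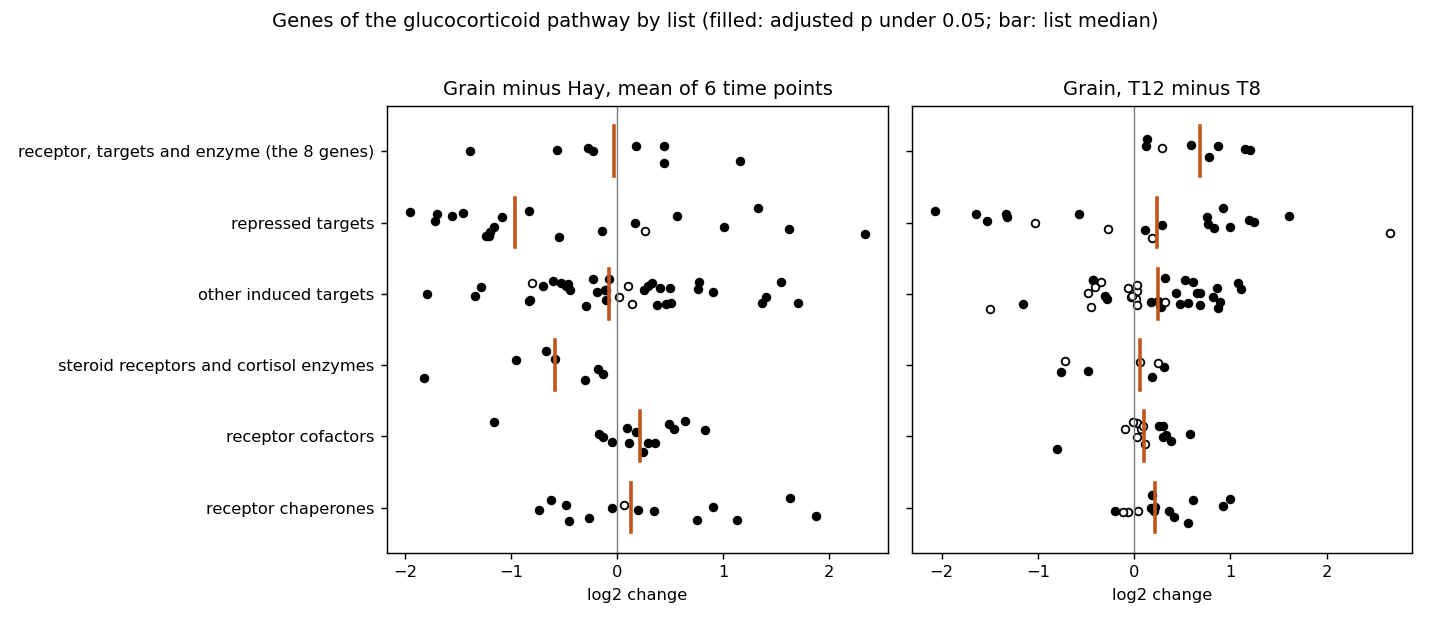
Log2 change of each tested gene of the glucocorticoid lists (rows; the 8 genes on top), Grain minus Hay over the mean of 6 times on the left and T12 minus T8 in Grain on the right, with TMM scaling; filled points have an adjusted p under 0.05 and bars are list medians. Induced and repressed targets both lie on both sides of 0 in both panels. With library size alone the medians of the 5 lower lists in the right panel are at or below -0.03, and that of all genes is lower still, at -0.34.

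From T8 to T12 in Grain, 19 of 37 further induced targets rose and 5 fell with TMM factors, but 11 rose and 14 fell with library size alone. Of all genes tested, 23.5% rose and 26.5% fell at this step in Grain with TMM factors, and 19.6% rose and 16.4% fell in Hay. These shares are the background of the list counts with TMM factors at this step. Shares for the counts with library size alone are not given here. On that scale the median log2 change of all genes was -0.34 in Grain and -0.17 in Hay, against -0.06 and -0.04 with TMM factors. Among the induced targets CRISPLD2 (1.11, SE 0.042), ANGPTL4 (0.68, SE 0.10) and BCL6 (0.61, SE 0.034) rose, and CEBPD fell by 1.15 (SE 0.077), all 4 called with both scalings. In Hay 4 of the 37 rose and 9 fell, or 4 and 19 with library size alone. BCL6 and FBXO32 fell there by 0.29 and 0.41.

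Of the 20 repressed targets, 10 rose and 6 fell in Grain, or 8 and 7 with library size alone, and 5 rose and 7 fell in Hay, or 4 and 8. IL1A rose by 1.00 (SE 0.040) in Grain and fell by 0.62 (SE 0.038) in Hay. MMP1 fell by 2.07 (SE 0.063) in Grain. IL11 rose in both media, by 1.24 and 2.55. Of the 14 chaperones, 10 rose and 1 fell in Grain with TMM factors, or 6 and 6 with library size alone, and in Hay 8 rose and 1 fell, or 7 and 4. HSPA8 rose by 1.00 (SE 0.038) and HSP90AB1 by 0.92 (SE 0.038) in Grain. Of the 14 cofactors, 6 rose and 1 fell in Grain, or 1 and 8 with library size alone. Of the 7 receptors and enzymes 2 rose and 2 fell, or 0 and 2.

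The genes with courses most like those of the members were found by Pearson's r over the 12 group means of log2 CPM, after each medium's own mean was taken away, among 10843 genes. Such means share libraries, scaling and, for many genes, the step at T12, so r is a description with no test. TSC22D3 was most like GATAD2B (0.990), its own relative TSC22D2 (0.990) and VASH2 (0.985). SGK1 was most like PTGS2 (0.990), the inducible cyclooxygenase and a member of the repressed list, HSPD1 (0.986) and TEAD2 (0.986). FKBP5 was most like NONO (0.981), PDK2 (0.981) and TRIM56 (0.978), and DUSP1 most like SLC25A40 (0.984), PCOLCE2 (0.979) and VCP (0.973).

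KLF9 was most like TCP11L2 (0.958), the stress-induced chaperone gene DNAJB9 (0.955) and LARP4 (0.952), and NR3C1 most like EPS15L1 (0.967), OGDH (0.961) and GBF1 (0.952). The scarce genes had weaker likenesses: ZBTB16 with ZBTB7A (0.904), KIF16B (0.892) and PHF3 (0.870), and HSD11B1 with GGA2 (0.942), PLA2G12A (0.940) and DCAF11 (0.936). None of the 8 genes was among the 3 nearest of another. Between members, the same r still ran from -0.42 (NR3C1 and KLF9) to 0.96 (TSC22D3 and SGK1). PTGS2, HSPD1, TEAD2, NONO, SLC25A40, TCP11L2, EPS15L1, GBF1, KIF16B and DCAF11 overlap another annotated gene.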

How the data were processed

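The 36 libraries hold RNA of cultured sheep cells labelled as ruminal epithelial. Per the labels' protocols, TRNzol RNA and the TruSeq RNA v2 kit, which keeps no strand, were used with paired-end reads from a NovaSeq 6000. The submitters' processing notes name HISAT2 2.2.1, SAMtools 1.20 and StringTie 2.1.5. The genome build, and which tool counted reads, are not given in the sources. The authors deposited raw gene counts with no normalization, whole numbers for 35223 genes. RefSeq names of assembly ARS-UI_Ramb_v3.0, in which all 8 members were found, served only to find overlapping genes.

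Genes were filtered with filterByExpr (minimum count 10, minimum total 15) and scaled by TMM. Two-sided quasi-likelihood tests of edgeR 4.0.16 (limma 3.58.1, R 4.3.3) used a mean for each of the 12 groups, or a mean, cosine and sine of 24 h period for each medium. P-values were adjusted over 22488 genes at a threshold of 0.05. Log2 levels used a prior count of 2. The procedure was tested on simulated data.

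The 8 genes and the lists were chosen with earlier results of these data known. Named besides the 8 were up to 3 genes per direction and list, by smallest p with at least 1 CPM in a group, and the 3 genes most alike with at least 5 CPM. The list genes SERPINA6, MT2A, MT1A, CCL2, VCAM1 and MMP3 were not analysed here, and some genes that the rule names are not reported here. Replicate numbers were not taken as pairs. The alternatives were DESeq2 1.42.0, its size factors, no filter, a replicate block, a time point fitted alone and each library left out. Library size alone, time points left out and the step tests were added after the data were seen.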

Additional observations from a re-analysis of the deposited data

Results flagged for a closer look

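The results below are differences between the media in a change over time, each tested directly; values are adjusted p of edgeR's quasi-likelihood test over all genes, from 36 libraries. The media difference depended on time for SGK1 (4.98e-21), TSC22D3 (1.84e-16), DUSP1 (9.94e-10), KLF9 (2.24e-09) and FKBP5 (1.02e-08). The step from T8 to T12 differed for SGK1 (2.47e-21), TSC22D3 (2.55e-16), DUSP1 (2.42e-10), FKBP5 (1.45e-08) and KLF9 (1.08e-07). In each of these 5 genes the change in Grain was above that in Hay. This step was chosen after the values were seen.

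The linear trend over 20 h differed for SGK1 (7.11e-10), TSC22D3 (6.28e-06) and KLF9 (3.54e-05). The 24 h component differed for KLF9 (3.68e-05), SGK1 (0.00196) and TSC22D3 (0.00671). KLF9 reached these values from the other medium than TSC22D3 and SGK1: its Hay mean went from 51.2 CPM at T8 to 39.0 at T12, while its Grain mean went from 36.9 to 40.1.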

How the results depend on the processing

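The mean media difference of each of the 8 genes kept its direction and call under every alternative, single libraries left out included, but that of FKBP5 was 0.0530 with library size alone against 0.175. With library size alone, in place of TMM factors, these reversed: NR3C1 (-0.147) and KLF9 (-0.158) in the Grain step from T8 to T12, KLF9 at T12 (-0.153) and T16 (-0.0866), and FKBP5 at T4 (-0.0288) and T20 (-0.0218). TSC22D3 at T4 ranged from -0.110 to 0.0168 on leaving out single libraries. Counts of members that moved over 1.5 times were those of the trend difference, 5 without the T0 or the T20 libraries against 3, and of the 24 h component that differs, 5 without the T0 and 1 without the T4 libraries against 3. Shares of all genes in these refits are not given here. FKBP5 at T20 was lost with DESeq2, DESeq2 size factors, no filter and the time point alone, and without most single libraries.

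Replicate numbers shared no deviation: over 198 pairs of same-numbered libraries the correlation was -0.0416 to 0.0409, none above 0.1. With the replicate number as a block, 18362 genes were called for the mean difference against 18388, the members' counts stayed within 1.5 times, and of single results FKBP5 at T20 was lost (0.0858). Low counts limit ZBTB16 and HSD11B1, whose SE at single times was up to 0.24 on the log2 scale.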
